A study of Mus musculus with 9 samples.

Results

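The genes of the DNA replication machinery were followed through 9 whole-ovary expression profiles. The set held 38 genes chosen by symbol from the deposited annotation, with Cdc45l and Orc1l as older symbols of Cdc45 and Orc1. All 38 were on the array, with 39 of its 28266 probe sets, and the probe set with the highest mean stood for a gene. The ovaries came from mice aged 3 weeks: 3 wild type, 3 heterozygous for Taf4b (TAF4b heterozygote) and 3 labelled TAF4b knockout, with no treatment and 1 array (GeneChip Mouse Gene 1.0 ST) per mouse. The strain, the extent of the deletion and how the allele was made are not given in the sources used here. The 3 mice of a genotype were biological replicates. Values are linear intensities, and a change is a difference of mean log2 intensities.

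Before a chromosome is copied, the origin recognition complex, CDC6 and CDT1 load the ring of MCM2 to MCM7 onto DNA, and geminin blocks CDT1 once S phase has begun. The kinase CDC7, MCM10, CDC45 and the GINS proteins then turn the ring into a moving helicase. Polymerase alpha with primase lays down primers, the loader RFC places the sliding clamp PCNA, polymerases delta and epsilon extend, RPA covers single strands, FEN1 and DNA ligase I join the lagging-strand fragments, and ribonucleotide reductase and thymidylate synthase supply deoxynucleotides. Many of these genes are targets of E2F transcription factors and are expressed in cells that are about to divide. In the ovary at 3 weeks the dividing cells are mostly granulosa cells of growing follicles, while oocytes are arrested in meiosis. Taf4b encodes a TFIID subunit, and TFIID is the complex that recognises core promoters for RNA polymerase II. In whole-ovary RNA, a smaller share of RNA from dividing cells and less RNA of these genes per dividing cell cannot be told apart.

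Promoter sequences of a few members are shown because E2F binding sites are the best known element these genes share. RefSeq promoter windows (build GRCm38.p6, 250 bases before to 50 after the annotated start) were matched by symbol for 31 of the 38 genes. An exact match to 1 of 4 E2F motifs (TTTCCCGC, TTTGGCGC, TTTCGCGC or TTTGCCGC, either strand) was found for 13 of the 31 genes, or 41.9%, against 2.6% of the 27025 genes in the table. Member windows are rich in CpG, with a median of 23 CpG against 7 over all windows, and the motifs themselves hold CpG. Among windows with at least 23 CpG, 7 of 19 member windows (36.8%) and 5.3% of 7071 windows in all held a match. The CCAAT box, letters CCAAT on either strand, was present for 20 of the 31 genes against 41.1% of all genes, and TATAAA for 3 against 15.7%. The 170 bases before the start follow for 4 members, 5′ to 3′ on the gene's strand and in lower case, with E2F matches in capitals. The regions are chr8:75109339-75109508, plus strand (Mcm5), chr1:128359706-128359875, minus strand (Mcm6), chr11:98907981-98908150, plus strand (Cdc6), and chr4:108579284-108579453, plus strand (Orc1l).
Mcm5: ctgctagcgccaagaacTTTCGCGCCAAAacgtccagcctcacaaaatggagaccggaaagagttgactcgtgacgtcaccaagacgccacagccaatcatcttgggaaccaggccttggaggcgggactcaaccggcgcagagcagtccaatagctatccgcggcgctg
Mcm6: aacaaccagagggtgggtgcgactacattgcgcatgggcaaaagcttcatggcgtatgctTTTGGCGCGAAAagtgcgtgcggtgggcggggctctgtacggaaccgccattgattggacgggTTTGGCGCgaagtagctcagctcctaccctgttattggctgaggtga
Cdc6: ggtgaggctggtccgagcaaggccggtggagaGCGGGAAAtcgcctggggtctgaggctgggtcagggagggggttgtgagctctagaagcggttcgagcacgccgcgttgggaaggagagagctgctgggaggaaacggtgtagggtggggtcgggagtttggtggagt
Orc1l: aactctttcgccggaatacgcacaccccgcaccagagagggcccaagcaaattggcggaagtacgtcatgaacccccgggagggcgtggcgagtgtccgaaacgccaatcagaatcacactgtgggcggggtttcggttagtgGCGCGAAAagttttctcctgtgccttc
In Mcm5 a TTTCGCGC match and a TTTGGCGC match on the other strand overlap, 153 and 149 bases before the start. In Mcm6 the same motifs overlap, 110 and 106 bases before the start, with a single further match 47 bases before it. The matches of Cdc6 (TTTCCCGC on the other strand) and Orc1l (TTTCGCGC on the other strand) begin 138 and 27 bases before their starts. Over all members, 11 of 19 matches lay before the start and 8 after it, the latter in Mcm3, Mcm7, Rfc3, Lig1, Pold1, Cdt1 and Pole2. A match of letters is a description of the sequence, and no binding was measured. The members shown all hold a match, and the changes of members with and without a match were not compared.

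**Figure D1:**
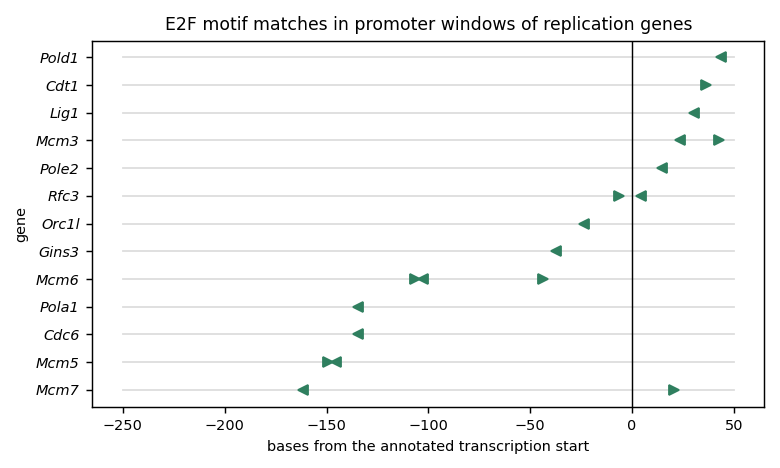
Position of each E2F motif match (triangles, pointing right for the gene's strand and left for the other strand) in the promoter windows of the 13 replication genes that hold one, in bases from the annotated transcription start. Matches run from 165 bases before the start in Mcm7 to 40 after it in Pold1.

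The 9 arrays were alike in scale, with median intensities between 124 and 127. Precision is limited by having 3 arrays per genotype. Heterozygote 1 stood somewhat apart, with correlations of 0.989 to 0.992 to the other arrays across probe sets against 0.993 to 0.998 among the others. Taf4b read 494, 635 and 723 in wild type, 456, 595 and 574 in heterozygotes and 332, 626 and 403 in the arrays labelled knockout. Its intensity in knockout 2 lay inside the wild-type range, as did those of heterozygotes 2 and 3. The level of knockout 2 thus goes against its label, although the position of the probe set relative to the deletion is not known here. A probe set outside the deletion would check nothing. The change of Taf4b was -0.48 (SE 0.23, exact two-sided permutation p = 0.2, where 0.1 is the smallest p that 3 against 3 arrays allow). The counts and medians of the replication genes in both comparisons with the arrays labelled knockout, and the list medians it moved most, are therefore also given without knockout 2. Among the 12 granulosa and 15 oocyte markers the lowest single intensities were 135 and 58, the latter for Figla in knockout 2 and below the array medians. The presence of a marker was not tested.

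Every replication gene had a lower mean in the ovaries labelled knockout than in wild type. All 38 genes lay below wild type, where 51.7% of all 25100 probe sets with a gene symbol did, with a median change of -0.24 against -0.0040 over all. The mean of Mcm5, a helicase subunit, was 22.3% lower, that of the fragment-trimming nuclease gene Fen1 24.6% lower and that of Gins1, of the helicase activator GINS, 26.8% lower. No single gene passed an adjusted p of 0.05 in limma, as 0.0757% of all probe sets did. At an unadjusted p under 0.05, 24 of the 38 were lower, against 5.77% of all probe sets. The 3 arrays labelled knockout lay wholly below the 3 wild-type arrays for 25 of the 38, against 7.77% of all probe sets. Without knockout 2 the median was -0.27, all 38 genes still lay below wild type, 20 were lower at an unadjusted p under 0.05 (5.88% of all probe sets) and 30 had no overlap (14.8% of all probe sets). In the authors' deposited table, whose p comes from a test on linear intensities, 17 of the 38 have p under 0.05, as do 7.25% of all probe sets with a symbol, in either direction.

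**Figure D2:**
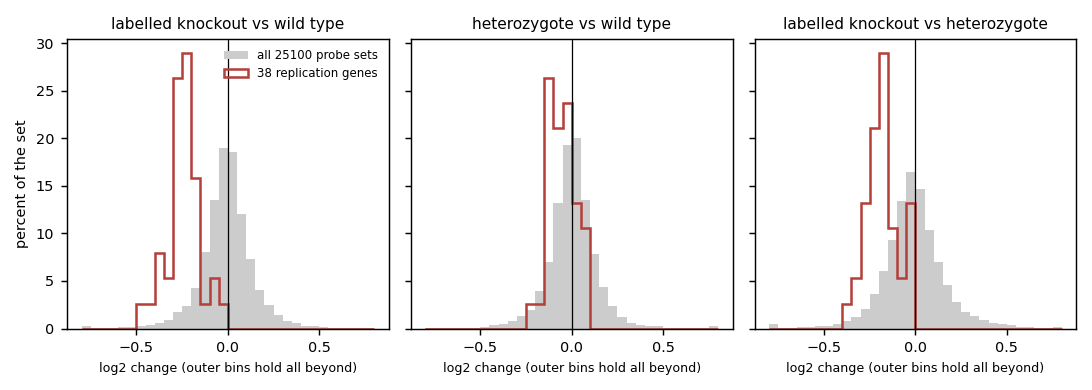
Histograms of the log2 change in the 3 comparisons for all 25100 probe sets (grey) and for the 38 replication genes (red line), in percent of each set. Against wild type and against heterozygotes, the arrays labelled knockout have all replication genes below 0, around medians of -0.24 and -0.19, while heterozygote against wild type centres on -0.06.

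The shift was present in all 3 arrays labelled knockout and was greatest in knockout 1. As a median over the 38 genes, log2 intensity deviated from the 9-array mean by 0.03, 0.14 and 0.14 in wild type 1 to 3, by 0.12, 0.03 and -0.01 in heterozygotes 1 to 3 and by -0.25, -0.12 and -0.08 in knockouts 1 to 3. The arrays labelled knockout thus lay below all 6 others. Knockout 1 gave the lowest of the 9 values for 28 of the 38 genes, where it gave the lowest for 13.61% of all probe sets. Knockout 2 gave the lowest value for 5 members (13.69% of all probe sets) and knockout 3 for 1 (11.22%), so only knockout 1 stood above its share. The remaining 4 lowest values came from heterozygotes 1 (14.61%) and 3 (11.44%) with 2 each. Without knockout 1 the median change was -0.20, and 16 genes were lower at an unadjusted p under 0.05 (4.66% of all probe sets).

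**Figure D3:**
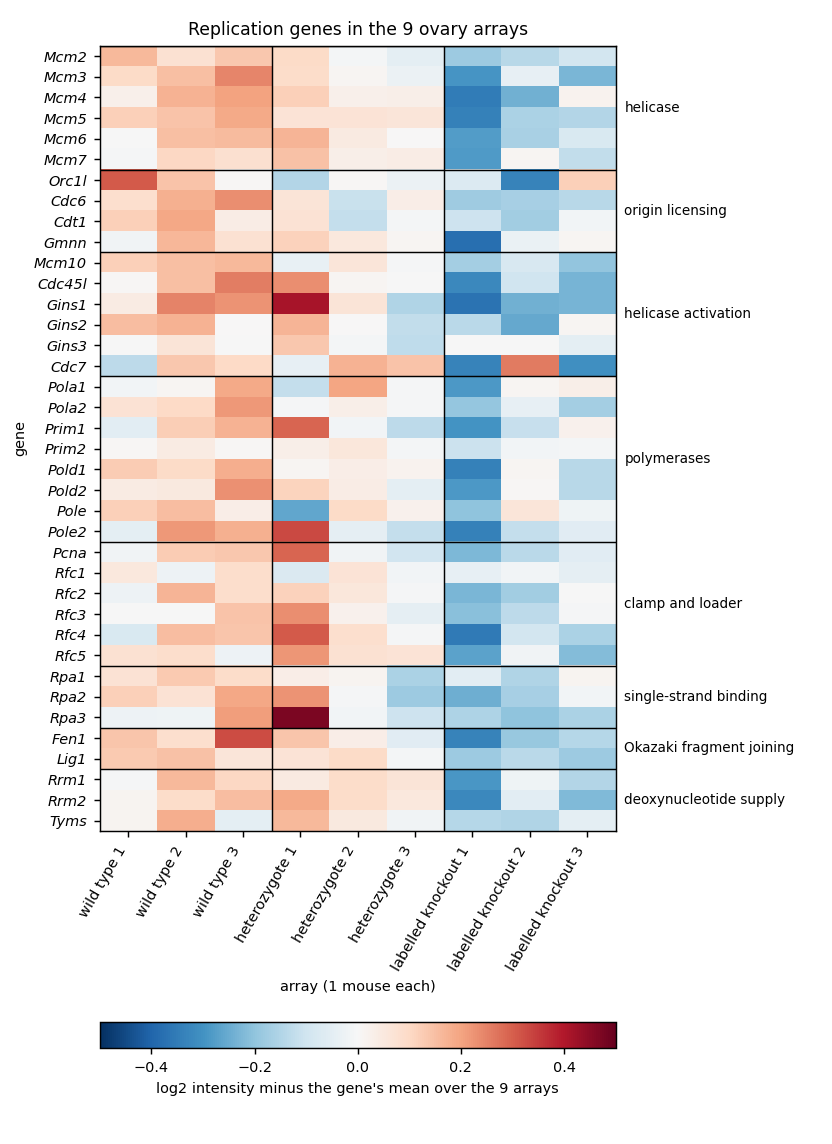
Log2 intensity of each of the 38 genes minus its mean over the 9 arrays (colour, from blue for lower to red for higher), with genes in order of role and arrays by genotype. The columns of the arrays labelled knockout are mostly blue, that of knockout 1 throughout except where it is near 0, as at Gins3.

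Among the 6 subunits of the helicase ring, all were lower at an unadjusted p under 0.05 and 5 had no overlap with wild type. Mcm5, whose promoter is shown above, read 928, 944 and 975 in wild type, 897, 896 and 891 in heterozygotes and 677, 766 and 773 in the arrays labelled knockout. The 3 genotypes did not overlap for this gene, and the arrays labelled knockout were lowest. Its mean was 949 ± 24.0 (SD, n = 3) in wild type against 738 ± 53.8 (SD, n = 3) in those labelled knockout, a change of -0.36 (SE 0.06, adjusted p = 0.0906, limma), the smallest p among the members. Mcm3 read 1315, 1364 and 1454 in wild type and 1002, 1195 and 1050 in the arrays labelled knockout (change -0.35, SE 0.08, adjusted p = 0.155, limma). For Mcm2 the wild-type arrays read 1643, 1546 and 1609 and those labelled knockout 1293, 1333 and 1375, again without overlap (change -0.26, SE 0.06, adjusted p = 0.153, limma). The other subunits stood at -0.32 (Mcm4), -0.27 (Mcm6) and -0.19 (Mcm7). For Mcm7, knockout 2 read 1525, inside the wild-type range of 1507 to 1625. The median change over the 6 subunits was -0.30.

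Of the genes that license origins, Cdc6, a loader of the helicase ring, had the smallest p. It read 411, 439 and 455 in wild type, 406, 359 and 396 in heterozygotes and 343, 346 and 353 in the arrays labelled knockout. The arrays labelled knockout lay close together and below every other array (change -0.32, SE 0.06, adjusted p = 0.123, limma). Cdt1, its partner in loading, stood at -0.21 (SE 0.07), with 799, 840 and 753 in wild type against 683, 651 and 728 in the arrays labelled knockout. Orc1l, the large subunit of the origin recognition complex, stood at -0.25 (SE 0.12), with overlap, since knockout 3 read 131 and wild type 3 read 122. Gmnn, encoding the CDT1 inhibitor geminin, stood at -0.21 (SE 0.10), which rested mostly on knockout 1 at 44.4, since knockouts 2 and 3 read 56.3 and 58.0 against 56.8 to 64.6 in wild type. Without knockout 1 the change of Gmnn was -0.09. Gmnn was also dim, at percentile 30.7 of all probe sets with a gene symbol by mean log2 intensity.

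Genes that activate the helicase spanned the widest range of changes, from -0.45 for Gins1 to -0.04 for Gins3, both of the GINS complex. Gins1 read 338, 390 and 384 in wild type, 437, 344 and 296 in heterozygotes and 255, 278 and 280 in the arrays labelled knockout. The arrays labelled knockout lay below the other 6, and heterozygote 1 was highest (change -0.45, SE 0.13, adjusted p = 0.268, limma). Gins3 read 280, 293 and 280 in wild type and 280, 280 and 272 in the arrays labelled knockout, so the groups overlapped, and the 95% interval of its change ran from -0.19 to 0.12. Mcm10, a scaffold that joins helicase and polymerase alpha, read 432, 442 and 445 in wild type, 388, 414 and 397 in heterozygotes and 353, 376 and 347 in the arrays labelled knockout. The genotypes of Mcm10 did not overlap, with heterozygotes in between (labelled knockout against wild type -0.29, SE 0.05, adjusted p = 0.105, limma). Cdc45l stood at -0.36 (SE 0.09) without overlap and Gins2 at -0.24 (SE 0.10) with overlap. Cdc7, the kinase that fires origins, had no common direction: knockouts 1 and 3 read 130 and 133, while knockout 2 read 197, the highest of the series (change -0.16, SE 0.16).

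**Figure D4:**
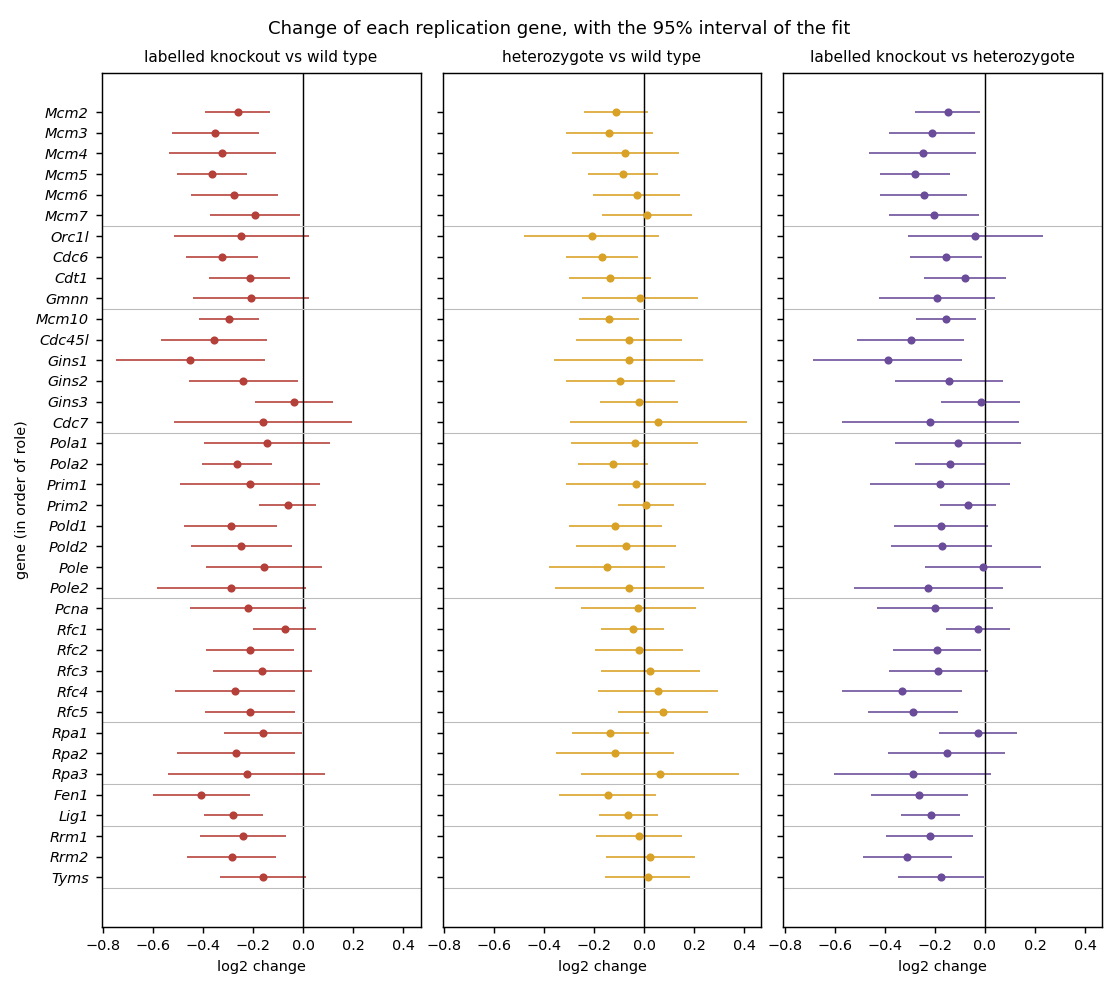
Log2 change of each of the 38 genes with its 95% interval from the fit, in order of role, for labelled knockout against wild type (left), heterozygote against wild type (middle) and labelled knockout against heterozygote (right). All points of the left and right panels lie below 0, and most intervals of the middle panel span 0.

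The 8 polymerase and primase genes had a median change of -0.23, and 3 were lower at an unadjusted p under 0.05. Pola2, the regulatory subunit of polymerase alpha, read 557, 569 and 617 in wild type, 528, 541 and 528 in heterozygotes and 464, 515 and 471 in the arrays labelled knockout. The 3 genotypes of Pola2 were separate, with heterozygotes in the middle (labelled knockout against wild type -0.26, SE 0.06, adjusted p = 0.188, limma). Pold1, the catalytic subunit of polymerase delta, stood at -0.29 (SE 0.08) and Pold2, its accessory subunit, at -0.25 (SE 0.09), both without overlap. The epsilon subunit gene Pole2 stood at -0.29 (SE 0.13), also without overlap, and the catalytic subunit gene Pole at -0.16 (SE 0.10) with overlap. The primase genes Prim1 and Prim2 stood at -0.21 and -0.06, and the catalytic polymerase alpha gene Pola1 at -0.14. Prim2 varied little over the series, between 267 and 298.

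Among the clamp and its loader, the sliding clamp gene Pcna read 2474, 2738 and 2749 in wild type, 3062, 2474 and 2346 in heterozygotes and 2142, 2282 and 2406 in the arrays labelled knockout. The arrays labelled knockout lay below wild type but overlapped heterozygotes (change -0.22, SE 0.10, adjusted p = 0.490, limma). A second probe set with the same accession gave nearly the same values and a change of -0.23, and which sequence each of the 2 measures is not known here, so the values of Pcna are uncertain in that respect. The loader genes Rfc4, Rfc5, Rfc2 and Rfc3 stood at -0.27, -0.21, -0.21 and -0.16, and Rfc1, the large subunit of the loader, at -0.07 (95% interval -0.20 to 0.05). Rfc4 read 979, 1149 and 1135 in wild type against 807, 967 and 925 in the arrays labelled knockout, with no overlap (SE 0.11, adjusted p = 0.401, limma). Of these 6 genes 3 were lower at an unadjusted p under 0.05.

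The 3 genes of the single-strand binding complex RPA lay below wild type with no overlap. Rpa1, the largest subunit, read 819, 854 and 832 in wild type, 799, 788 and 699 in heterozygotes and 753, 702 and 788 in the arrays labelled knockout. Both other genotypes of Rpa1 lay below wild type and overlapped each other (labelled knockout against wild type -0.16, SE 0.07, adjusted p = 0.451, limma). Rpa2 stood at -0.27 (SE 0.10). Rpa3 stood at -0.23 (SE 0.14), and its lowest wild-type array, at 120, was near the highest array labelled knockout, at 109.

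Both genes that finish lagging-strand fragments were lower without overlap. Lig1, encoding DNA ligase I, read 1045, 1057 and 995 in wild type, 1000, 1020 and 946 in heterozygotes and 841, 869 and 842 in the arrays labelled knockout. The arrays labelled knockout lay together below all others (change -0.28, SE 0.05, adjusted p = 0.122, limma). Fen1 read 427, 411 and 486 in wild type, 427, 397 and 373 in heterozygotes and 307, 340 and 351 in the arrays labelled knockout (change -0.41, SE 0.08, adjusted p = 0.140, limma). Again the arrays labelled knockout lay below all others.

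Of the deoxynucleotide genes, Rrm2, the cell-cycle regulated subunit of ribonucleotide reductase, read 820, 865 and 905 in wild type, 927, 867 and 842 in heterozygotes and 650, 783 and 697 in the arrays labelled knockout. Heterozygotes and wild type overlapped, and the arrays labelled knockout lay below both (change -0.28, SE 0.08, adjusted p = 0.250, limma). The large subunit gene Rrm1 stood at -0.24 (SE 0.08) without overlap. Tyms, encoding thymidylate synthase, stood at -0.16 (SE 0.08) with overlap, since knockout 3 read 457 and wild type 3 read 456.

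The replication genes of heterozygotes were closer to wild type than those of the arrays labelled knockout, with most means slightly below wild type. Of the 38, 29 lay below wild type, where 48.6% of all probe sets did, with a median of -0.06 against 0.0030 over all probe sets. None passed an adjusted p of 0.05 in limma, as 0% of all probe sets did, and 2 were lower at an unadjusted p under 0.05, Cdc6 (-0.17, SE 0.06) and Mcm10 (-0.14, SE 0.05), both at adjusted p = 0.815 (limma), against 3.04% of all probe sets. Of the 38 genes, 3 have p under 0.05 in the authors' deposited table for this pair of genotypes, where 4.57% of all probe sets do, and a count this small is near that share. Heterozygotes lay wholly below wild type for 7 genes, against 6.43% of all probe sets: Mcm3, Mcm5, Cdc6, Mcm10, Pola2, Pold1 and Rpa1. The next smallest p-values belonged to Pola2 (-0.12, SE 0.06), Mcm2 (-0.11, SE 0.06), Rpa1 (-0.13, SE 0.07) and Cdt1 (-0.14, SE 0.07), also at adjusted p = 0.815 (limma). Heterozygotes read 1565, 1456 and 1419 for Mcm2, where heterozygote 1 lay inside the wild-type range. For Cdt1 they read 773, 677 and 729, again with heterozygote 1 inside that range. Median changes by role were -0.15 for origin licensing, -0.12 for RPA, -0.08 for the helicase ring, 0.0018 for the clamp and loader and 0.01 for deoxynucleotide supply. Leaving out heterozygote 1 gave a median of -0.11, with 34 of the 38 genes below wild type (51.6% of all probe sets). In that fit 4 genes were lower at an unadjusted p under 0.05 (2.89% of all probe sets). Heterozygotes then lay wholly below wild type for 13 genes (12.5% of all probe sets, since 2 arrays are separated from 3 more easily). The count at an unadjusted p under 0.05 was 0 without wild type 2 (2.1% of all probe sets) or wild type 3 (3.55%). It was 1 without heterozygote 2 (3.47%) or heterozygote 3 (2.08%). Without wild type 3, 11 genes had no overlap, where 12% of all probe sets had none.

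Against heterozygotes, the arrays labelled knockout again had lower means for all 38 genes, where 54.5% of all probe sets were lower. This comparison shares the arrays labelled knockout with the first. The median was -0.19 against -0.01 over all probe sets. None passed in limma, as 0.0239% of all probe sets did. At an unadjusted p under 0.05, 19 genes were lower, against 6.57% of all probe sets, and 19 had no overlap, against 8.12%. Of the 38 genes, 11 have p under 0.05 in the authors' deposited table, where 7.69% of all probe sets do. All 6 helicase subunits had no overlap. Mcm5 stood at -0.28 (SE 0.06, adjusted p = 0.149, limma), Lig1 at -0.22 (SE 0.05, adjusted p = 0.171), Rrm2 at -0.31 (SE 0.08, adjusted p = 0.180) and Rfc5 at -0.29 (SE 0.08, adjusted p = 0.198). For Rfc5, a loader subunit gene, heterozygotes read 717, 647 and 644 and the arrays labelled knockout 511, 608 and 528, with no overlap. Mcm6 read 1946, 1783 and 1729 in heterozygotes against 1423, 1545 and 1639 in the arrays labelled knockout (-0.24, SE 0.08, adjusted p = 0.231, limma). Cdc45l read 528, 452 and 448 against 360, 419 and 383 (-0.30, SE 0.09, adjusted p = 0.235, limma). The groups did not overlap for either gene. Without knockout 2, 36 of the 38 genes lay below heterozygotes (median -0.21), 17 were lower at an unadjusted p under 0.05 (7.8% of all probe sets) and 22 had no overlap (16.3%). Without knockout 1 the count at an unadjusted p under 0.05 was 7 (4.53% of all probe sets), and without heterozygote 1 it was 11 (5.55%). Pole (-0.0089), Gins3 (-0.02), Rfc1 and Rpa1 (both -0.03) and Orc1l (-0.04) were nearest to 0.

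Other genes of the pathway, from lists that do not include the members, were set against wild type in the same way, beside the 5.77% of all probe sets that were lower at an unadjusted p under 0.05. None of the genes in these lists passed an adjusted p of 0.05 in limma. All 14 further origin genes lay below wild type (median -0.16), and 7 were lower at an unadjusted p under 0.05, led by Ticrr, needed to load CDC45 (-0.39), the helicase paralog gene Mcm8 (-0.37) and Wdhd1, a link between helicase and polymerase alpha (-0.21). Of 17 further fork genes 16 lay below (median -0.15) and 7 were lower at an unadjusted p under 0.05, led by the nuclease-helicase gene Dna2 (-0.29), the checkpoint mediator gene Clspn (-0.31) and the polymerase delta subunit gene Pold3 (-0.24). All 7 chromatin genes lay below (median -0.15), and 3 were lower at an unadjusted p under 0.05: the histone chaperone genes Chaf1a (-0.27) and Asf1b (-0.26) and the methylation maintenance gene Uhrf1 (-0.29). All 8 further deoxynucleotide genes lay below (median -0.10), among them Dctd, for deoxycytidylate deaminase, at -0.23. Of 13 E2F and pocket protein genes 12 lay below (median -0.23), with 7 lower at an unadjusted p under 0.05, including E2f8 (-0.34), E2f1 (-0.29) and the pocket protein gene Rbl1 (-0.24), while 1, the E2F partner gene Tfdp2 (0.16), was higher at an unadjusted p under 0.05 without overlap. Of 20 mitosis genes 19 lay below (median -0.17), with 9 lower at an unadjusted p under 0.05, including the kinase gene Plk1 (-0.31), the passenger protein gene Birc5 (-0.36) and the checkpoint kinase gene Bub1 (-0.36). Without knockout 2 the mitosis median was -0.26, and 15 of the 20 genes were lower at an unadjusted p under 0.05, against 5.88% of all probe sets in that fit. The chromatin count was then 1, and without knockout 1 the fork count was 4 (4.66% of all probe sets). Several of these lists were also low in heterozygotes against wild type, where 48.6% of all probe sets lay below. All 14 origin genes (median -0.06), 6 of 7 chromatin genes (-0.14) and 7 of 8 deoxynucleotide genes (-0.10) lay below. Of the chromatin genes 3 were lower at an unadjusted p under 0.05, against 3.04% of all probe sets. Medians were -0.08 for the E2F and pocket protein genes and -0.03 for both fork and mitosis genes.

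Markers of several cell types moved beside the replication genes, and their part in the result was not tested. Of 12 granulosa markers 9 lay below wild type (median -0.14), with Fst (follistatin) at -0.72, Fshr (the FSH receptor) at -0.79 and Inhbb (an inhibin beta subunit) at -0.84, while Cyp19a1 (aromatase) stood at -0.05 and Foxl2, Amhr2 and Kitl lay above wild type at 0.09, 0.16 and 0.29. Their summed intensity ranged from 28411 to 29815 in wild type, 28098 to 30626 in heterozygotes and 22212 to 29671 in the arrays labelled knockout, where knockout 2 was within the wild-type range. Of 15 oocyte markers 9 lay below (median -0.13), with sums of 25702 to 34896 in wild type, 21194 to 25382 in heterozygotes and 22631 to 35967 in the arrays labelled knockout. All 9 macrophage markers lay above wild type (median 0.44), with sums of 1378 to 1534 in wild type, 1296 to 1429 in heterozygotes and 1731 to 2427 in the arrays labelled knockout. All 6 surface epithelium markers (median 0.52), all 7 stroma markers (0.24), all 6 endothelium markers (0.25), all 6 theca markers (0.68), all 6 adipocyte markers (0.36) and all 4 oviduct markers (0.27) also lay above. The oviduct changes were uneven, from 0.02 to 2.03, and the lowest single intensity among these markers was 38. Without wild type 2 or without wild type 3, 1 of the 4 oviduct markers lay below wild type. Sums in wild type and in the arrays labelled knockout were 1923 to 2451 and 2982 to 3373 for surface epithelium, 19950 to 22074 and 22406 to 25742 for stroma, 2476 to 2792 and 2748 to 3135 for endothelium, 2707 to 2928 and 3358 to 9424 for theca, 2171 to 2429 and 2928 to 3438 for adipocytes and 407 to 534 and 700 to 930 for oviduct. Without knockout 2 the theca median was 0.32, the granulosa median -0.27 and the oocyte median 0.02. Without knockout 3 the granulosa median was -0.08 and the oocyte median -0.23. Against heterozygotes, all 6 adipocyte markers of the arrays labelled knockout lay above (median 0.95), beside adipocyte sums of 1058 to 1879 in heterozygotes. Of the oocyte markers 13 of 15 lay above heterozygotes (median 0.25), as did all 7 stroma markers (0.30), all 6 endothelium markers (0.29), all 9 macrophage markers (0.49) and all 6 surface epithelium markers (0.40), while 8 of 12 granulosa markers lay below (-0.12). The values hold no detection call, so the presence of these markers was not tested.

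**Figure D5:**
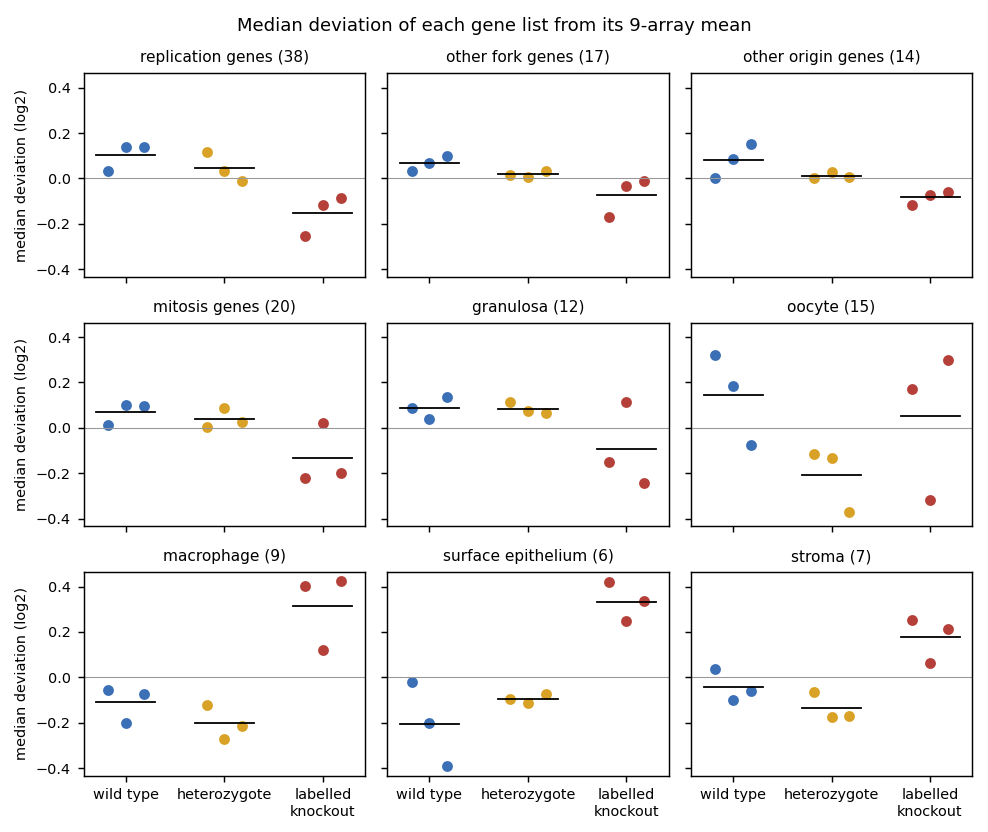
Median deviation of each gene list from its 9-array mean (log2) in every array (points, by genotype) with the mean of 3 arrays (line), and the number of genes in brackets. The replication genes of the arrays labelled knockout sit between -0.25 and -0.08, below all other arrays, while macrophage and surface epithelium markers of those arrays sit above all others.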

How the data were processed

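Per the series' design text, the authors labelled 300 ng of total ovary RNA per mouse for the arrays and obtained intensity values with RMA-Sketch in Expression Console 1.1, which corrects background, normalizes arrays and summarizes probes. No source used here gives the annotation release. The deposited intensity values are linear, and log2 values were computed from them. Per the file headers, the authors' 3 comparison tables also hold a ratio of group means and a p-value, which matched an equal-variance two-sample comparison of the linear values in 100% of cells (tolerance 1e-06). The intensities of these tables equal the value table, and 0 value columns were left unmapped.

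The 25100 probe sets with a symbol were fitted in 1 limma 3.58.1 model (R 4.3.3) over all 9 arrays with eBayes, two-sided, with Benjamini-Hochberg adjustment over all of them. The fit was tested on simulated data with known changes. These were larger than any change of the replication genes, so the simulation does not show how well changes of their size are found. A change without adjustment is named as such. For promoters, symbols and sequences of RefSeq (GRCm38.p6) were used. Symbols of other lists were matched through the RefSeq gene table: 18712 probe sets matched on accession, 2160 on symbol and 1732 on a synonym, and 2496 had no match. The members and lists were chosen with earlier results of these data known, so no list was tested as a set, and counts are read beside those over all probe sets. Every member is named, with full values for the 6 of smallest p in each comparison and for at least 1 per role, and up to 3 genes of smallest p come from each other list. A gene of the other lists that this rule would name is not reported here. Alternatives were other normalizations, filters, array weights, the replicate block, probe set averages, the deposited tables' test and leaving out each array. The main fit did not pair arrays of equal number. Correlations of deviations from group means ran from -0.193 to 0.334 over 9 pairs of equal number and from -0.372 to 0.263 over 18 others. These ranges overlap and cannot show whether arrays of equal number belonged together.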

Additional observations from a re-analysis of the deposited data

How the results depend on the processing

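In labelled knockout against wild type, all 38 replication genes stayed below wild type under every alternative run, and their median ranged from -0.27 to -0.20 when 1 array was left out. The number with unadjusted p under 0.05 ranged from 16 to 28 in those fits, beside 4.16% to 6.31% of all probe sets lower at that p. The number without overlap ranged from 25 to 31, beside 7.77% to 14.8% of all probe sets. Of the members 0 were called each time, beside 2 to 20 of all probe sets. Array weights, which count heterozygote 1 (weight 0.4) and knockout 2 (0.496) least, gave 5 called genes, Mcm10 (adjusted p = 0.0314), Mcm5, Lig1, Mcm3 and Cdc6, among 199 called of 25100 probe sets (0.793%) against 19 without weights. The smallest adjusted p of a member ranged from 0.0314 to 0.495 over the alternatives. In heterozygote against wild type the median ranged from -0.11 to -0.02 when 1 array was left out, and the genes below wild type from 21 to 35. Those with unadjusted p under 0.05 then ranged from 0 to 4, beside 1.44% to 4.76% of all probe sets lower at that p. Those without overlap ranged from 7 to 13, beside 6.43% to 12.5% of all probe sets, with 0 called among the members and over all. The count with unadjusted p under 0.05 was 0 after quantile normalization (3.83% of all probe sets lower), 0 after median centring (2.07%) and 6 with array weights (5.16%). That without overlap was 3 after median centring (4.06%). In labelled knockout against heterozygote the median ranged from -0.22 to -0.14 when 1 array was left out, and the genes below from 36 to 38. Those with unadjusted p under 0.05 then ranged from 7 to 21, beside 4.53% to 7.8% of all probe sets lower at that p. Those without overlap ranged from 19 to 28, beside 8.12% to 16.3%. Of the members 0 were called, beside 0 to 261 of all probe sets. The equal-variance test on linear intensities gave 11 genes lower at p under 0.05 (3.61% of all probe sets). Leaving out knockout 2 and heterozygote 1 together, an alternative chosen after the data were seen, gave a median of -0.27 for labelled knockout against wild type, and for heterozygote against wild type 7 genes with unadjusted p under 0.05 (5.22% of all probe sets) and 13 without overlap (12.5%). Counts without overlap are larger over all probe sets too when an array of the compared groups is left out. With the replicate block the counts with unadjusted p under 0.05 were 21, 2 and 15 in the 3 comparisons. Beside them 5.82%, 2.82% and 6.68% of all probe sets were lower at that p. Of the members 0 were called, beside 3, 0 and 0 of all probe sets. The cause of these differences was not tested. No depth limit applies to arrays, and signal over background was not used here because the deposited values hold no detection call.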

Other observations

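The 3 arrays labelled knockout differed in what accompanied the low replication genes. In knockouts 1 and 3 the mitosis list deviated from its 9-array mean by -0.219 and -0.201 and the granulosa list by -0.152 and -0.244, beside -0.255 and -0.085 for the replication genes. In knockout 2, the array labelled knockout whose Taf4b intensity lay inside the wild-type range, mitosis genes stood at 0.02 and granulosa markers at 0.114. The replication genes stood at -0.116 in it. The origin licensing genes stood at -0.17 and the helicase ring at -0.15 in this array, while the polymerase genes stood at -0.0033. Theca markers stood at 0.889 in knockout 2 and oocyte markers at -0.317.

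Heterozygote 1 gave the highest value of the 9 arrays for 13 of the 38 genes and the lowest for 2, where it gave the highest value for 19.83% and the lowest for 14.61% of all probe sets. The 2 were Pole (375, against 390 to 499 elsewhere) and Rfc1. Among the 13 were Rpa3 at 168 (106 to 140 elsewhere), Pcna at 3062 (2142 to 2749 elsewhere), Pole2 at 282 and Gins1 at 437. Subunits of 1 enzyme, Pole and Pole2, thus lay at opposite ends of the series in this array.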
